A study of Homo sapiens with 6 samples.

Results

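NF-kB is a family of dimeric transcription factors, and the 10 genes described here encode its 5 subunits (NFKB1, NFKB2, REL, RELA and RELB) and 5 proteins that restrain or tune it (NFKBIA, NFKBIB, NFKBIE, NFKBIZ and TNFAIP3). They were chosen by name, out of 60651 gene rows, and all 10 were measured and tested in all 6 libraries. The cells were MDA-MB-231, an established human triple-negative breast cancer line labelled wild type, grown in serum-containing medium. They received DMSO as the solvent control, AF-EAE at 75 µg/ml or AF-EAE at 150 µg/ml for 24 h, with 2 libraries per condition. AF-EAE was obtained with ethyl acetate from Antenoron filiforme, a herb, and its constituents are not stated in the labels. The labels number the libraries as biological replicates but do not say whether they came from separate cultures. Each p-value therefore sets a difference against a spread between libraries, estimated with help from other genes, that may be only technical.

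In resting cells NF-kB dimers are held in the cytoplasm by inhibitors of the IkB family. In the canonical route, a kinase complex (IKK) marks IkB for destruction and frees dimers that contain RELA or REL with the NFKB1 product. In the non-canonical route, the NFKB2 precursor is processed and pairs with RELB. NF-kB switches on several of its own inhibitor genes, NFKBIA and TNFAIP3 among them, and NFKB2 and RELB are themselves known NF-kB target genes. Basal-like breast cancer lines such as this one are known for ongoing NF-kB activity.

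Promoter sequences are shown because several of these genes, such as NFKBIA, TNFAIP3, NFKB2 and RELB, are known NF-kB targets. The promoter table from RefSeq (GRCh38.p14) held 8 of the 10 genes in 14 windows, each running from 250 bases before to 50 bases after an annotated start; RELB and NFKBIE were not matched. The kB consensus motif, of 10 bases and searched on both strands, was found in 9 of the 14 windows and in 7 of the 8 genes. Of all 35116 windows of this length, 11.3% held it, and 13.3% of genes had it in any window. RELA was the gene with no match in its windows. Windows that hold a match are shown for NFKB1, which was lower, and for some of the genes that were higher at one dose or both. They run 5′ to 3′ on the gene's strand, with the motif matches in capitals (overlapping matches run together). Matched windows of REL and NFKBIB, both called higher at 150 µg/ml, are not shown, and another NFKB1 window held no match.
NFKB1 (chr4:102501109-102501408, plus strand): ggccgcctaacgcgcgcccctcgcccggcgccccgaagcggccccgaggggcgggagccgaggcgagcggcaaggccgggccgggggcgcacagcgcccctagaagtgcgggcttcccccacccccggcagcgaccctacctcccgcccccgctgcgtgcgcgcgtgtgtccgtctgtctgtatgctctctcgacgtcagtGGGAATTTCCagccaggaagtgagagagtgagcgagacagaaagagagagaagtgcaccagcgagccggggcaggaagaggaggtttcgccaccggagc
NFKB2 (chr10:102394328-102394627, plus strand): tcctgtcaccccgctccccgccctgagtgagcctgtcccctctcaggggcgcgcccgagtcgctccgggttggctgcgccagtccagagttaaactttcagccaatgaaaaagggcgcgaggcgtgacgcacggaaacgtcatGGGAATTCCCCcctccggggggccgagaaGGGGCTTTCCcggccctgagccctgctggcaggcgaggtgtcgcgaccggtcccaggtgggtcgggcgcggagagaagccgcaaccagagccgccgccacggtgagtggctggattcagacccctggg
NFKBIA (chr14:35404700-35404999, minus strand): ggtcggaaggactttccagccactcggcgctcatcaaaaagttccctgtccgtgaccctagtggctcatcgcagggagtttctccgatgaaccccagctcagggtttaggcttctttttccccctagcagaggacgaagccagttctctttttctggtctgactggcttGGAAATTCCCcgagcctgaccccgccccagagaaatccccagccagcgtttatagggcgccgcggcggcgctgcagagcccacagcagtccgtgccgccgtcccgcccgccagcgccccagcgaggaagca
NFKBIZ (chr3:101827740-101828039, plus strand): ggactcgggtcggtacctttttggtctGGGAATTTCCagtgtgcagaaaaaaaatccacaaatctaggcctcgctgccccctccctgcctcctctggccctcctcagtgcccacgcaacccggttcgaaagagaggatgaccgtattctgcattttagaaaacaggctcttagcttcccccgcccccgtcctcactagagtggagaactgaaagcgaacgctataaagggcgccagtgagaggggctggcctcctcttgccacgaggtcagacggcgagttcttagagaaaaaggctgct
TNFAIP3 (chr6:137867009-137867308, plus strand): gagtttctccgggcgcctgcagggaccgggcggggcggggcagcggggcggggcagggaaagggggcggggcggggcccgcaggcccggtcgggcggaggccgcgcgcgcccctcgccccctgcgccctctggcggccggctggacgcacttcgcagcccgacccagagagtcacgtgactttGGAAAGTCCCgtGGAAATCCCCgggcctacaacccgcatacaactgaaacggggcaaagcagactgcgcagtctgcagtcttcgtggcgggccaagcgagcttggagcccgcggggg
The NFKB1 match, GGGAATTTCC, begins 49 bases before the annotated start, and the same letters begin 223 bases before the upstream start of NFKBIZ. The NFKB2 window shown holds overlapping matches from 107 bases before the start and GGGGCTTTCC from 78 bases before it. Another NFKB2 window holds GGGGCTTCCC and GGGACTTTCC, 176 and 21 bases before its own start, and a further one holds no match. In NFKBIA the match lies on the opposite strand, 81 bases before the start, and TNFAIP3 has a pair on the opposite strand, 67 and 55 bases before it. These are matches of letters and were not tested as binding sites.

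Counts assigned to genes ran from 15621103 to 17113722 per library. Values below are CPM, a gene's share of the counted reads written per 1000000, scaled with TMM, which sets libraries to a common level through the bulk of their genes. The profile was mesenchymal, as is known for this line: VIM (vimentin) averaged 836 CPM in the DMSO libraries, while CDH1 (E-cadherin) and the progesterone receptor gene PGR averaged 0.0606 CPM or less in every condition. The luminal breast list as a whole was not absent: 6 of its 10 genes were under 1 CPM in all libraries, but it summed to 129 to 150 CPM, most of it ERBB2 (85.1 and 85.3 CPM in DMSO). Of its 5 tested genes, 2 rose and 0 fell at 75 µg/ml and 2 rose and 1 fell at 150 µg/ml against DMSO. Over all genes tested, 19.2% rose and 19.4% fell at 75 µg/ml, and 25.8% rose and 25.7% fell at 150 µg/ml. Leukocyte markers were near absent, with all 12 genes under 1 CPM in every library, 5 at 0 in all 6 (the pan-leukocyte gene PTPRC among them) and a summed level of 0.733 to 1.45 CPM. Of 9 tested mesenchymal markers, 7 fell and 1 rose at 75 µg/ml, and 8 fell and 1 rose at 150 µg/ml against DMSO. The 10 markers of this list summed to 5349 and 5280 CPM in DMSO. The sum was 4002 and 3930 CPM at 75 µg/ml and 3245 and 3282 CPM at 150 µg/ml. The part of this lower sum in the results below was not tested. In bulk RNA, fewer cells of a type and less RNA per cell cannot be told apart.

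**Figure D1:**
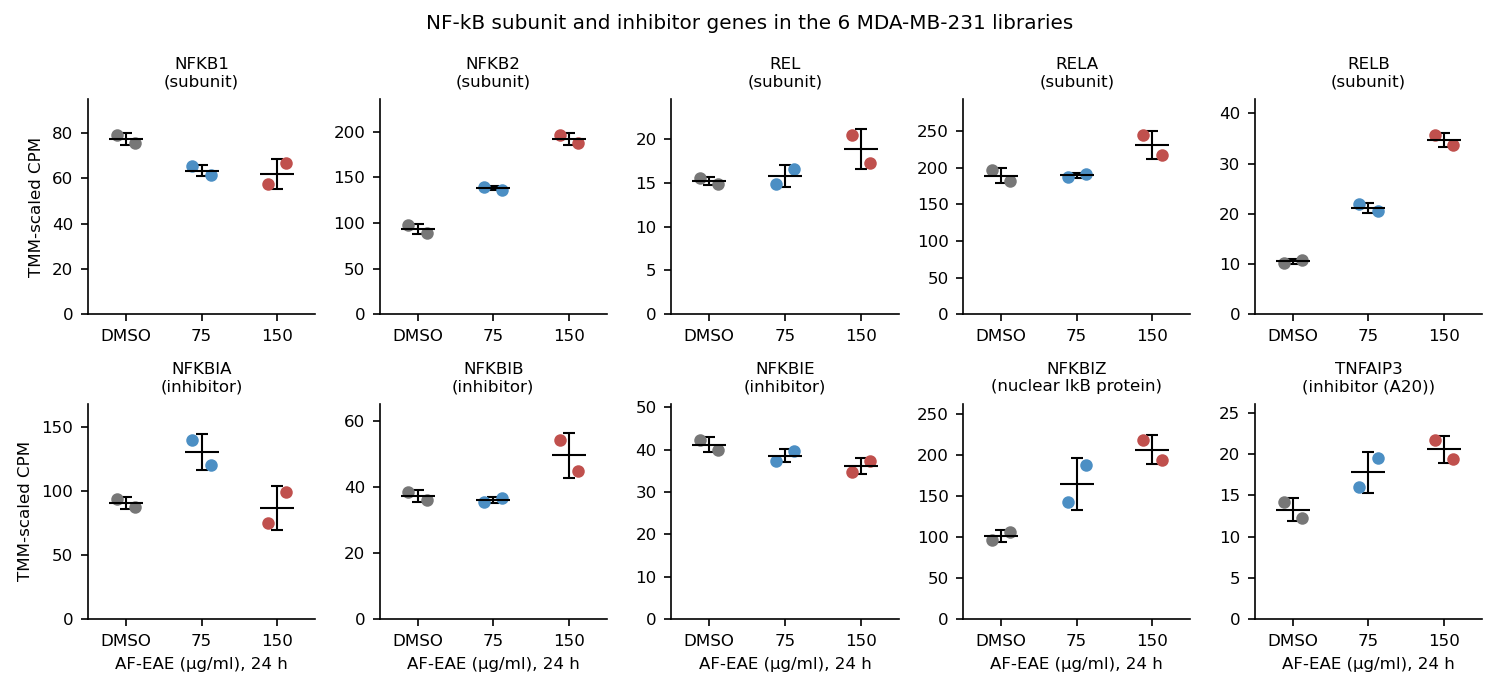
Level of each of the 10 genes in every library (points, TMM-scaled CPM on an axis from 0) by AF-EAE dose, with the mean and SD of the 2 libraries (bars). NFKB2, RELB and NFKBIZ step up with dose (RELB averages 10.5, 21.2 and 34.8 CPM), NFKB1 is lower at both doses, and NFKBIA is high only at 75 µg/ml.

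Among the subunit genes, RELB and NFKB2 of the non-canonical route rose in all 3 comparisons. NFKB1 fell at both doses, and RELA and REL rose 1.22-fold and 1.24-fold at 150 µg/ml and did not pass the test at 75 µg/ml. RELB (chr19:45001430-45038198, plus strand; positions are of GENCODE 29 on GRCh38), whose product pairs with processed NFKB2, had 10.2 and 10.8 CPM in the DMSO libraries, 21.9 and 20.5 CPM at 75 µg/ml and 35.7 and 33.8 CPM at 150 µg/ml. Every library at a higher dose lay above every library at a lower one. Against DMSO it rose 2.02-fold at 75 µg/ml (log2 fold change 1.02, SE 0.114, adjusted p = 2.0e-06) and 3.31-fold at 150 µg/ml (1.73, SE 0.11, adjusted p = 6.2e-10) in edgeR (quasi-likelihood F-test, Benjamini-Hochberg adjusted over 15589 genes), the test used throughout. The step to 150 from 75 µg/ml was also past the threshold of 0.05 (log2 fold change 0.71, SE 0.0998, adjusted p = 7.0e-05).

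NFKB2 (chr10:102394110-102402529, plus strand) encodes a long precursor that itself acts as an inhibitor until it is processed to the DNA-binding subunit. It had 97.6 and 89.3 CPM in the DMSO libraries, 140 and 136 CPM at 75 µg/ml and 197 and 188 CPM at 150 µg/ml, again with no overlap between conditions. The log2 fold changes were 0.56 (SE 0.0583, adjusted p = 7.9e-07) at 75 µg/ml and 1.04 (SE 0.0574, adjusted p = 1.1e-10) at 150 µg/ml against DMSO, and 0.48 (SE 0.0555, adjusted p = 1.0e-05) at 150 against 75 µg/ml. Gene-level counts do not tell the precursor from its product, which differ only as proteins.

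NFKB1 (chr4:102501329-102617302, plus strand) encodes the precursor and DNA-binding partner of the canonical route and was the member that fell against DMSO at both doses. It had 79.2 and 75.5 CPM in the DMSO libraries, 65.3 and 61.6 CPM at 75 µg/ml and 57.4 and 66.8 CPM at 150 µg/ml. The treated libraries all lay below the DMSO libraries, but those of the 2 doses overlapped. It fell by 0.29 on the log2 scale at 75 µg/ml (SE 0.0764, adjusted p = 0.00655) and by 0.32 at 150 µg/ml (SE 0.0764, adjusted p = 0.00212). The difference of 150 from 75 µg/ml was -0.03 with a 95% interval of -0.19 to 0.13. The fall is small and rests on the scaling: with total counts in place of TMM, the log2 fold changes were -0.16 (adjusted p = 0.105) at 75 µg/ml and -0.13 (adjusted p = 0.16) at 150 µg/ml, and the call was also lost without replicate 2 at 75 µg/ml (adjusted p = 0.06) or without replicate 1 at 150 µg/ml (adjusted p = 0.0512). Over all genes, total counts put the median at 0.14 and 0.22 at the 2 doses, against 0.01 and 0.03 with TMM.

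RELA (chr11:65653596-65663094, minus strand) encodes the main activating subunit and had the highest count of the 5 subunit genes. It had 197 and 182 CPM in the DMSO libraries, 188 and 192 CPM at 75 µg/ml and 245 and 218 CPM at 150 µg/ml. The 75 µg/ml libraries lay within the range of DMSO (log2 fold change 0.004, 95% interval -0.12 to 0.13), and its sign changed between alternatives. Those at 150 µg/ml lay above all others, with a rise of 0.29 against DMSO (SE 0.0593, adjusted p = 5.4e-04) and of 0.29 against 75 µg/ml (SE 0.0592, adjusted p = 0.0022); without replicate 1 at 150 µg/ml this step was 0.20 (adjusted p = 0.0623). Total counts made the rise against DMSO 0.48 (adjusted p = 2.5e-06).

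REL (chr2:60881521-60931610, plus strand), a subunit gene known mainly from lymphoid cells, was the lowest of the 5 subunits per length. It had 15.5 and 14.9 CPM in the DMSO libraries, 14.9 and 16.6 CPM at 75 µg/ml and 20.5 and 17.2 CPM at 150 µg/ml. Only the 150 µg/ml libraries stood clear of DMSO, by 0.31 on the log2 scale (SE 0.124, adjusted p = 0.0448), which passed narrowly. The call was lost under 9 of 15 alternatives. DESeq2 gave an adjusted p of 0.162, and leaving out 1 library in turn lost the call without either DMSO replicate or replicate 1 at 150 µg/ml (adjusted p up to 0.348). Total counts made the value 0.50 (adjusted p = 0.00249), and it was 0.18 without replicate 1 at 150 µg/ml. Another annotated gene, AC010733.2, covers 43.3% of the exonic length of REL on the same strand, so reads there could be left uncounted and the level is a lower estimate.

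**Figure D2:**
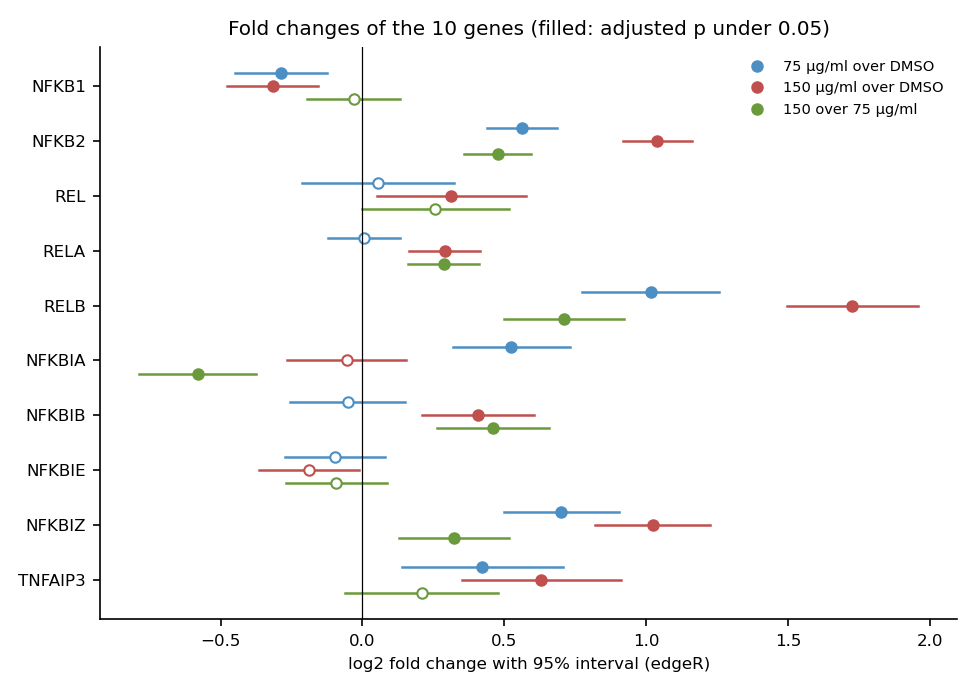
Log2 fold changes of the 10 genes with 95% intervals (edgeR) at 75 µg/ml over DMSO, 150 µg/ml over DMSO and 150 over 75 µg/ml; filled points have an adjusted p under 0.05. NFKB2 and RELB are to the right of 0 in all 3 comparisons, and NFKBIA lies at 0.52, -0.06 and -0.58.

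Among the IkB genes, NFKBIA passed the test as higher only at 75 µg/ml against DMSO, NFKBIB only at 150 µg/ml and NFKBIE at neither dose; the differences between these genes were not tested. NFKBIA (chr14:35401511-35404749, minus strand), the IkB whose resynthesis ends a canonical NF-kB response, was higher at the lower dose and not at the higher one. It had 93.7 and 87.1 CPM in the DMSO libraries, 140 and 120 CPM at 75 µg/ml and 74.8 and 98.9 CPM at 150 µg/ml. The 75 µg/ml libraries lay above all others, and those at 150 µg/ml lay on either side of the DMSO pair. The rise at 75 µg/ml was 0.52 (log2 fold change, SE 0.0974, adjusted p = 3.7e-04). At 150 µg/ml the log2 fold change against DMSO was -0.06, with a 95% interval of -0.27 to 0.15 and an adjusted p of 0.668. Against 75 µg/ml the 150 µg/ml level fell by 0.58 (SE 0.0971, adjusted p = 3.6e-04). That step was past the threshold in every alternative tried, including each library left out (log2 fold changes of -0.79 to -0.39). The value against DMSO was not fixed: it was -0.28 (adjusted p = 0.0305) without replicate 2 at 150 µg/ml, 0.13 (adjusted p = 0.291) without replicate 1 at 150 µg/ml and 0.13 (adjusted p = 0.27) under total counts.

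NFKBIB (chr19:38899700-38908893, plus strand) encodes another IkB that binds RELA and REL dimers. It had 38.6 and 36.1 CPM in the DMSO libraries, 35.5 and 36.6 CPM at 75 µg/ml and 54.4 and 44.9 CPM at 150 µg/ml. The lower dose overlapped DMSO (log2 fold change -0.05, 95% interval -0.25 to 0.15, and 0.07 under total counts), and the higher dose lay above both. The rise at 150 µg/ml was 0.41 against DMSO (SE 0.0932, adjusted p = 0.00138) and 0.46 against 75 µg/ml (SE 0.093, adjusted p = 0.00185). Without replicate 1 at 150 µg/ml the rise against DMSO was 0.26 (adjusted p = 0.0469) and the step from 75 µg/ml was 0.32 (adjusted p = 0.0561).

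NFKBIE (chr6:44258166-44265788, minus strand) encodes a further cytoplasmic IkB and passed the test in no comparison. It had 42.4 and 39.9 CPM in the DMSO libraries, 37.4 and 39.6 CPM at 75 µg/ml and 34.8 and 37.4 CPM at 150 µg/ml. The libraries of each dose lay just below those of DMSO, with log2 fold changes of -0.10 (95% interval -0.27 to 0.08) at 75 µg/ml and -0.19 (95% interval -0.37 to -0.01, adjusted p = 0.0702) at 150 µg/ml. With DESeq2 size factors the value at 150 µg/ml passed (-0.21, adjusted p = 0.0465), and under total counts the values were 0.03 and -0.001.

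NFKBIZ (chr3:101827991-101861022, plus strand) encodes a nuclear IkB protein that works as a cofactor for a subset of NF-kB target genes, such as IL6, rather than as a cytoplasmic brake. It had 96.3 and 106 CPM in the DMSO libraries, 142 and 187 CPM at 75 µg/ml and 218 and 193 CPM at 150 µg/ml. The conditions did not overlap, although those at 75 µg/ml lay further apart than the others. Against DMSO it rose by 0.70 (log2 fold change, SE 0.0963, adjusted p = 1.8e-05) at 75 µg/ml and by 1.02 (SE 0.0955, adjusted p = 9.0e-08) at 150 µg/ml. The step to 150 from 75 µg/ml was 0.32 (SE 0.0918, adjusted p = 0.0182), and it was lost under DESeq2 (adjusted p = 0.22), without replicate 1 at 75 µg/ml (0.14, adjusted p = 0.278) and without replicate 1 at 150 µg/ml (0.24, adjusted p = 0.236). Without replicate 2 at 75 µg/ml it was 0.53 (adjusted p = 4.0e-05).

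TNFAIP3 (chr6:137867188-137883312, plus strand) encodes a ubiquitin-editing enzyme that shuts off signalling upstream of IKK. It had 14.3 and 12.3 CPM in the DMSO libraries, 16.01 and 19.58 CPM at 75 µg/ml and 21.8 and 19.4 CPM at 150 µg/ml. Both doses lay above DMSO and overlapped each other. The rise was 0.63 (log2 fold change, SE 0.132, adjusted p = 6.5e-04) at 150 µg/ml. At 75 µg/ml it was 0.42 (SE 0.134, adjusted p = 0.0189), which DESeq2 did not call (adjusted p = 0.0597) and which was lost without replicate 2 of DMSO (0.32, adjusted p = 0.131) or of 75 µg/ml (0.27, adjusted p = 0.229).

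Counted over the 10 genes, 5 rose and 1 fell at 75 µg/ml against DMSO, where 38.6% of all genes tested were called, 19.2% higher and 19.4% lower. At 150 µg/ml 7 rose and 1 fell, where 51.5% of all genes were called, 25.8% higher and 25.7% lower. From 75 to 150 µg/ml 5 were higher and 1 lower, where 22.0% of all genes were called, 9.51% higher and 12.5% lower; without replicate 1 at 150 µg/ml that total of 6 became 3. Libraries of the compared conditions did not overlap for 7 of the 10 genes at 75 µg/ml against DMSO, 5 higher and 2 lower, where 68.5% of all genes did not (35.2% higher, 33.3% lower). At 150 µg/ml against DMSO this held for 9, 7 higher and 2 lower, where it held for 74.8% of all genes (39.2% higher, 35.6% lower). At 150 against 75 µg/ml it held for 8, 6 higher and 2 lower, where it held for 60.6% of all genes (29.9% higher, 30.7% lower). The median log2 fold change of the 10 was 0.24, 0.36 and 0.27 in these comparisons, against 0.01, 0.03 and 0.0004 over all genes. Under total counts 5 of the 10 rose and 0 fell at 75 µg/ml, and 7 rose and 0 fell at 150 µg/ml, where the calls over all genes became 4501 higher and 1816 lower at 75 µg/ml and 6031 higher and 2542 lower at 150 µg/ml, against 2989 and 3026, and 4022 and 4000, with TMM. At 150 against 75 µg/ml the split became 2206 higher and 1345 lower, against 1482 and 1951 with TMM. The comparisons with DMSO share the DMSO libraries and are not independent of each other.

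Ratios of counts within a library do not depend on scaling between libraries, and they are given without a test because 2 against 2 libraries cannot go below p = 0.33 in a two-sided exact permutation test. The ratio of NFKB2 to NFKB1 counts was 1.23 and 1.18 in DMSO, then 2.14 and 2.21 with 75 µg/ml and 3.43 and 2.81 with 150 µg/ml. The ratio of RELB to RELA counts was 0.052 and 0.0593 in DMSO, then 0.117 and 0.107 with 75 µg/ml and 0.146 and 0.155 with 150 µg/ml. Both ratios were higher in every library at a higher dose than in every library at a lower one. The ratio of NFKBIA to RELA counts was 0.477 and 0.478 in DMSO, then 0.746 and 0.625 with 75 µg/ml and 0.305 and 0.454 with 150 µg/ml. It was highest at 75 µg/ml, and at 150 µg/ml both libraries lay below the DMSO pair, 1 of them by a small margin.

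**Figure D3:**
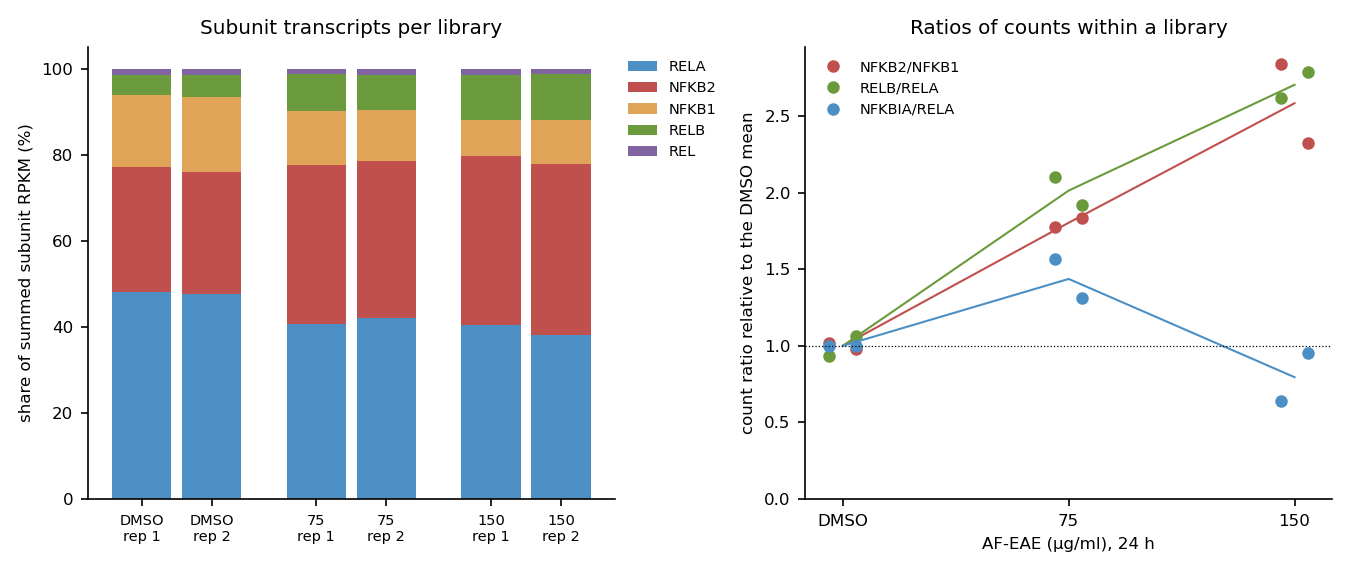
Left, share of each subunit gene in the summed subunit RPKM of a library (stacked bars, percent); right, count ratios within each library (points) and their means (lines), each divided by its DMSO mean. The NFKB2 and RELB shares are larger in the treated libraries (39.7% and 10.6% at 150 µg/ml, against 28.75% and 4.79% in DMSO), and the NFKBIA to RELA ratio peaks at 75 µg/ml.

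Levels of different genes were compared per length, as TMM-scaled CPM per kilobase of annotated exons (RPKM). In DMSO, NFKBIA (38.1 ± 1.97 RPKM) and RELA (34.6 ± 1.87 RPKM) stood highest (SD, n = 2, here and below). NFKB2 followed at 20.8 ± 1.31 RPKM. NFKBIZ (17.2 ± 1.21 RPKM), NFKBIB (16.1 ± 0.763 RPKM) and NFKBIE (15.9 ± 0.666 RPKM) came next, with libraries that overlapped. NFKB1 was at 12.4 ± 0.425 RPKM, and RELB (3.46 ± 0.137 RPKM), TNFAIP3 (2.63 ± 0.272 RPKM) and REL (1.153 ± 0.0348 RPKM) were lowest. The order depends on the length used: with the longest annotated transcript, RELA (59.5 ± 3.21 RPKM) and NFKBIA (58.0 ± 3.0 RPKM) changed places and NFKB1 moved to the fifth place.

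At 75 µg/ml the order of the mean levels was that of DMSO, with NFKBIA at 54.8 ± 5.91 RPKM ahead of RELA at 34.7 ± 0.6 RPKM. At 150 µg/ml the highest means were those of NFKB2 (42.8 ± 1.43 RPKM), RELA (42.4 ± 3.56 RPKM), NFKBIA (36.6 ± 7.18 RPKM) and NFKBIZ (34.9 ± 3.0 RPKM). The libraries of NFKB2 (43.8 and 41.8 RPKM) and RELA (44.9 and 39.8 RPKM) overlapped, so their order is not settled. Both NFKBIZ libraries (37.0 and 32.8 RPKM) lay below those of NFKB2 and RELA. The NFKBIA libraries (31.5 and 41.7 RPKM) lay on either side of the NFKBIZ pair and overlapped those of RELA. RELB (11.45 ± 0.451 RPKM) stood above NFKB1 (9.92 ± 1.07 RPKM). With the longest transcript, a setting extended to the doses after the data were seen, the order at 150 µg/ml changed. RELB (15.6 and 14.7 RPKM) and NFKB1 (14.04 and 16.4 RPKM) then overlapped. RELA (77.04 and 68.4 RPKM) stood clear of NFKB2 (57.5 and 54.9 RPKM), which NFKBIZ (55.7 and 49.3 RPKM) overlapped. At 75 µg/ml NFKBIZ (42.0 ± 8.14 RPKM) then stood beside NFKB2 (40.4 ± 0.697 RPKM). As a share of the summed subunit RPKM, RELA made up 47.8%, 41.4% and 39.2% in DMSO, 75 and 150 µg/ml, NFKB2 28.75%, 36.7% and 39.7%, NFKB1 17.1%, 12.1% and 9.22%, RELB 4.79%, 8.35% and 10.6%, and REL 1.59%, 1.43% and 1.32%. With the longest transcript RELA kept the largest share at 150 µg/ml (45.1%, with NFKB2 at 34.9%), and the RELB share was 4.11%, 7.33% and 9.41%. The summed level of the 5 subunit genes was 72.5 ± 3.5, 83.9 ± 0.576 and 108 ± 4.55 RPKM. The summed level of the IkB genes NFKBIA, NFKBIB and NFKBIE was 70.1 ± 3.4, 85.2 ± 4.97 and 71.95 ± 4.98 RPKM. The subunit sum was highest at 150 µg/ml, where the IkB sum overlapped that of DMSO. NFKB2, whose precursor also acts as an inhibitor, stands in the subunit sum. These sums of RNA therefore do not measure how far NF-kB was restrained.

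The genes with the profiles most like 2 members were found by the distance between log2 CPM profiles over the 6 libraries, centred on DMSO, among 9507 genes with a symbol and a mean of 10 CPM or more. For RELB, the member with the largest change at 150 µg/ml, they were KDM7A, a histone demethylase gene (distance 0.0904), ABHD4, a lipase gene (0.111), and DNAJB2, a cochaperone gene (0.162). Their log2 fold changes at 150 µg/ml against DMSO were 1.72, 1.74 and 1.71, beside 1.73 for RELB. For NFKB1 they were RBBP8, a DNA end-resection gene (distance 0.0989), WDR74, a ribosome biogenesis gene (0.102), and E2F4, a cell cycle repressor gene (0.119), with log2 fold changes at 150 µg/ml of -0.34, -0.35 and -0.38, beside -0.32 for NFKB1.

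The rest of the pathway was described with 6 lists of 127 further genes in all, 126 of them on a row, ordered from signal to target. Their counts stand against 38.6% of all genes called at 75 µg/ml (19.2% higher, 19.4% lower) and 51.5% at 150 µg/ml (25.8% higher, 25.7% lower). Total counts move all genes upward, as given above, and the median of each list with them. Nothing particular to a list is read from its count. Of 18 ligand genes of NF-kB receptors, 6 had enough counts to be tested. Of these 6, 3 rose and 0 fell at each dose against DMSO. Under total counts 3 rose at 75 µg/ml and 4 at 150 µg/ml, and 0 fell. The interleukin-1 genes led them. IL1B had 12.2 and 17.8 CPM in the DMSO libraries, 92.05 and 87.88 CPM at 75 µg/ml and 141 and 147 CPM at 150 µg/ml, log2 fold changes of 2.59 (SE 0.106) and 3.26 (SE 0.103). IL1A had 27.0 and 32.9 CPM in the DMSO libraries, 94.4 and 96.9 CPM at 75 µg/ml and 168 and 149 CPM at 150 µg/ml, log2 fold changes of 1.68 (SE 0.086) and 2.40 (SE 0.0839). TNF, LTA and LTB are listed at 0 in all 6 libraries, but so is NFKBIL1, a broadly expressed gene beside them on chromosome 6, so these zeros are not read as absence; the cause was not tested.

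Of 20 tested receptor genes, 12 rose and 2 fell at 75 µg/ml against DMSO, and 11 rose and 2 fell at 150 µg/ml (median log2 fold changes 0.38 and 0.40). With total counts 14 rose and 1 fell at each dose. The 2 lower calls at 75 µg/ml became 1 without replicate 1 of DMSO or either replicate at 75 µg/ml, and those at 150 µg/ml became 1 without replicate 1 of DMSO or of 150 µg/ml. TNFRSF10B, a death receptor gene for TRAIL, rose to 432 and 416 CPM at 150 µg/ml, against 269 and 289.5 CPM in DMSO (log2 fold change 0.60, SE 0.0485). TNFRSF21, another death receptor gene, fell to 38.1 and 36.2 CPM at 150 µg/ml, against 72.4 and 69.1 CPM in DMSO (-0.93, SE 0.0738).

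Of 24 adaptor and ubiquitin ligase genes, 4 rose and 8 fell at 75 µg/ml against DMSO. At 150 µg/ml 6 rose and 8 fell, and the medians were 0.02 and -0.03. Over all genes 38.6% and 51.5% were called at these doses, 19.2% and 25.8% higher and 19.4% and 25.7% lower. With total counts the split was 8 higher and 6 lower at 75 µg/ml and 12 higher and 7 lower at 150 µg/ml (medians 0.15 and 0.16). RBCK1, a subunit gene of the linear ubiquitin ligase that recruits IKK, had 263 and 273 CPM at 150 µg/ml, against 100.5 and 100.7 CPM in DMSO (log2 fold change 1.41, SE 0.0509). SQSTM1, a scaffold gene also known from autophagy, had 1120 and 1094 CPM at 150 µg/ml, against 547 and 520 CPM in DMSO (1.05, SE 0.0448). The genes of the ligase complex that degrades the kinase of the non-canonical route were picked after their values were seen. At 75 and 150 µg/ml against DMSO TRAF2 fell by 0.62 and 0.51, TRAF3 by 0.25 and 0.33 and BIRC2 by 0.60 and 0.67 on the log2 scale, while BIRC3 was at 0.09 and -0.07 and did not pass the test. With total counts TRAF3 was at -0.13 (adjusted p = 0.0801) and -0.14 (adjusted p = 0.0416).

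Of 17 IKK and upstream kinase genes, 5 rose and 3 fell at 75 µg/ml against DMSO. At 150 µg/ml 6 rose and 4 fell, and the medians were 0.13 and 0.12. Over all genes 38.6% and 51.5% were called at these doses, 19.2% and 25.8% higher and 19.4% and 25.7% lower. With total counts 10 rose and 1 fell at each dose. The 5 higher at 75 µg/ml became 3 without replicate 1 of DMSO, and the 4 lower at 150 µg/ml became 2 without replicate 1 of 150 µg/ml. IRAK2, a kinase gene of interleukin-1 and Toll-like receptor signalling, had 76.2 and 70.1 CPM at 75 µg/ml and 94.5 and 102 CPM at 150 µg/ml, with 31.1 and 30.2 CPM in DMSO (log2 fold changes 1.26 and 1.68). TAB3, an adaptor gene of the kinase that activates IKK, rose by 0.53 and 0.92. Also named after their values were seen are the IKK genes themselves. CHUK (-0.15 and -0.07) and IKBKB (-0.12 and -0.09) did not pass, IKBKG rose by 0.58 and 0.51 but has a near-identical copy that makes its count uncertain, and MAP3K14, the kinase gene of the non-canonical route, was at -0.05 and -0.19 and did not pass.

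Of 17 tested genes of other IkB proteins and negative regulators, 6 rose and 3 fell at 75 µg/ml against DMSO and 10 rose and 2 fell at 150 µg/ml (medians 0.11 and 0.23). With total counts 10 rose and 2 fell at 75 µg/ml and 13 rose and 1 fell at 150 µg/ml (medians 0.24 and 0.42). The 2 lower at 150 µg/ml became 1 without replicate 2 of DMSO or of 150 µg/ml. TNIP3, a partner gene of TNFAIP3, had 11.5 and 11.5 CPM in the DMSO libraries, 31.8 and 30.0 CPM at 75 µg/ml and 41.9 and 39.2 CPM at 150 µg/ml (log2 fold changes 1.42 and 1.81). TAX1BP1, another TNFAIP3 partner gene, rose by 0.34 and 0.65. Of 24 tested NF-kB target genes, 15 rose and 4 fell at 75 µg/ml and 15 rose and 6 fell at 150 µg/ml (medians 0.68 and 0.40). With total counts 17 rose and 2 fell at 75 µg/ml and 16 rose and 2 fell at 150 µg/ml. The 4 lower at 75 µg/ml became 2 without replicate 2 of 75 µg/ml, and the 6 lower at 150 µg/ml became 3 without replicate 2 of 150 µg/ml. The chemokine genes CXCL2 and CXCL8 had log2 fold changes of 2.34 and 1.85 at 75 µg/ml and of 3.29 and 3.05 at 150 µg/ml, and CXCL2 can share reads with its close relatives. BCL3, TNIP1, TRAF1 and BIRC3 stand in 2 of these lists each.

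**Figure D4:**
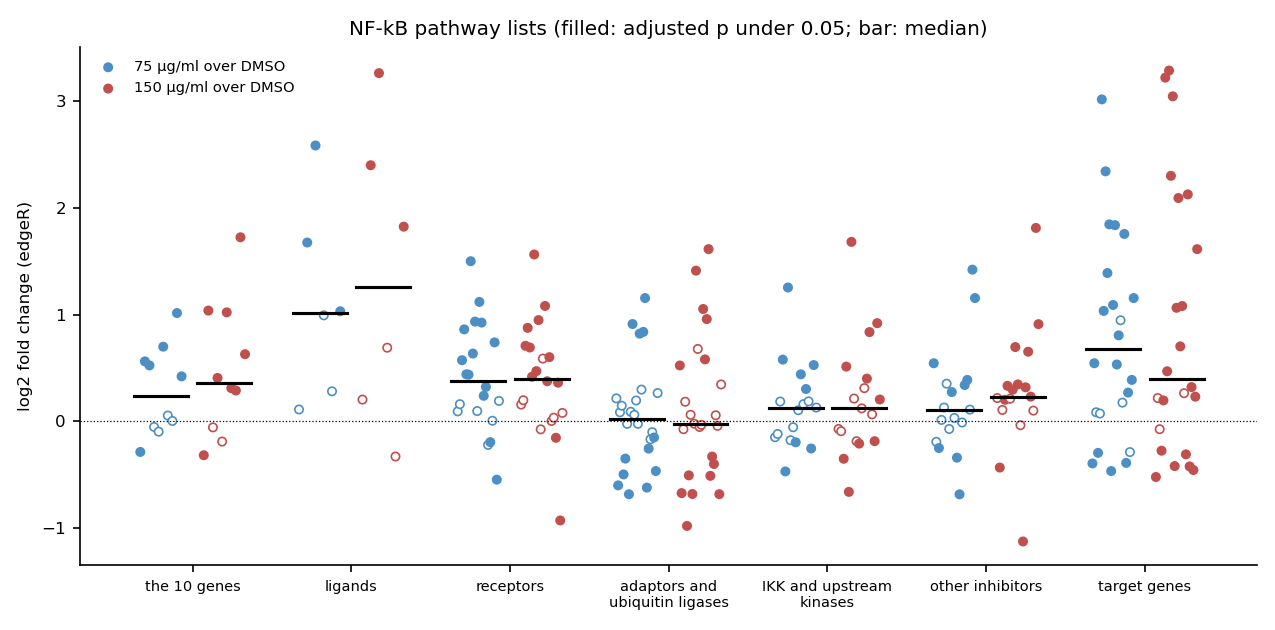
Log2 fold changes (edgeR) of every tested gene of the 10 members and of the 6 pathway lists at 75 and at 150 µg/ml over DMSO; filled points have an adjusted p under 0.05 and bars are medians. A target gene with 0 counts in DMSO, BCL2A1, is left out of the points. Medians at 150 µg/ml are 1.26 for the 6 tested ligands, 0.40 for receptors and -0.03 for adaptors. They are 0.12 for kinases, 0.23 for other inhibitors and 0.40 for target genes.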

How the data were processed

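Each library had 1 deposited file of raw read counts per gene, with 60651 gene rows and 5 summary rows without a gene, which entered neither library sizes nor tests. HISAT2 2.2.1, HTSeq 2.0.2 and the build hg38 are named per the submitters' processing notes. The counting options, strand setting and annotation release are not stated in the labels, so reads of a gene and an antisense partner cannot be told apart. Reads that matched no gene region used in counting made up 6.32% to 7.98% of a library. Reads in overlapping genes, which are not counted, made up 10.95% to 11.48%. Gene symbols matched 60437 rows, and exon lengths came from GENCODE 29.

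Differences were tested in edgeR 4.0.16 (R 4.3.3) with TMM, the default filter by group (15589 genes kept), a mean per group over all 6 libraries, the quasi-likelihood F-test and Benjamini-Hochberg adjustment over all genes, called at 0.05. The biological coefficient of variation was 5.08%. Standard errors and 95% intervals of log2 fold changes were derived from the F statistic. The scripts were tested on simulated data. The 10 members and the lists were chosen with earlier results of these data known. From each pathway list the 2 genes with the smallest p at 150 µg/ml against DMSO and a mean of 5 CPM or more are named, and others are marked as picked later. Alternatives were DESeq2 size factors, total counts, 2 other filters, DESeq2 1.42.0, limma-voom (limma 3.58.1), fits to the 2 compared groups alone, a replicate block, leaving out each library and a threshold of 0.01.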

Additional observations from a re-analysis of the deposited data

Results flagged for a closer look

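Reads that matched no gene region used in counting, which no comparison uses, took a larger share in the 150 µg/ml libraries than in either DMSO library. The counting options are not stated, so whether such reads lay inside or outside genes cannot be told. The share was 7.98% and 7.73% at 150 µg/ml, against 6.32% and 6.72% in DMSO. Its part in the gene results was not tested.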

How the results depend on the processing

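Over 30 values (10 genes in 3 comparisons) and 15 alternatives, 410 of 450 kept their direction and their side of the threshold, 23 lost the call, 2 gained it and 15 changed sign. The 3 comparisons of NFKB2 and of RELB kept their calls under all 15 alternatives. The sign changes were of values that had not passed. For RELA at 75 µg/ml against DMSO the log2 fold change was -0.0121 with DESeq2 size factors, -0.0035 with no filter and -0.0120 with the DESeq2 test, and leaving out 1 library gave -0.0523 to 0.0584. Total counts gave 0.0749 for NFKBIB and 0.0305 for NFKBIE at 75 µg/ml against DMSO, 0.13 for NFKBIA at 150 µg/ml against DMSO and 0.0303 for NFKB1 at 150 against 75 µg/ml. Leaving out 1 library gave -0.0277 to 0.12 for REL at 75 µg/ml against DMSO, -0.28 to 0.13 for NFKBIA at 150 µg/ml against DMSO and -0.14 to 0.0806 for NFKB1 at 150 against 75 µg/ml.

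At 150 against 75 µg/ml, leaving out 1 library gave 3 to 6 of the 10 members, 23 to 43 pathway genes (40 with all libraries) and 1507 to 3714 genes in all, and a threshold of 0.01 gave 1883 genes in all, against 3433; without replicate 1 of 75 µg/ml there were 1990. The longest transcript as length gave DMSO means of 58.0 RPKM for NFKBIA, 59.5 for RELA, 27.4 for NFKB2, 25.8 for NFKBIZ, 16.99 for NFKBIB, 18.9 for NFKB1, 4.58 for RELB and 1.35 for REL. The labels number the replicates without saying that a number marks a shared batch, and differences between replicates correlated between groups at 0.113, 0.0651 and -0.000119, so the numbers were not taken as pairs. With the replicate block 6, 8 and 6 members were called at 75 µg/ml against DMSO, 150 µg/ml against DMSO and 150 against 75 µg/ml, as without it, and 6292, 8194 and 3776 genes in all. Precision differed between members. At 150 µg/ml against DMSO the SE was 0.124 for REL (227 counts or more) and 0.132 for TNFAIP3 (188 or more). For NFKB2 it was 0.0574 and for RELA 0.0593. The SE did not follow the counts alone. It was 0.11 for RELB (162 or more), 0.0997 for NFKBIA (1238 or more) and 0.0764 for NFKB1 (949 or more). The 2 libraries per group also limit the precision.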
